A study of Homo sapiens with 6 samples.

Results

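The 51 genes described here are those of the NF-kB pathway and of inflammatory cytokine signalling, out of 34834 genes with a quantified transcript. The rule was a list of symbols with no threshold on a measured value. The list holds 27 pathway components (NF-kB subunits, IkB proteins, IKK-family kinases and their scaffold, adaptors, ubiquitin regulators and receptors), 15 cytokines and chemokines, and 9 other genes (3 effector targets, and 6 genes of the STAT3 and AP-1 group). All 51 had at least 1 transcript in the files and are accounted for below.

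SKOV3 is an established human ovarian cancer cell line. Cells were transfected by lipid reagent with 50 nM of a pool of 4 siRNAs against the long non-coding RNA DNM3OS (3 samples, called knockdown) or with 50 nM of a non-targeting siRNA pool (3 samples, called control), and RNA was profiled after 48 h. All 6 samples therefore shared the cell line, the reagent and exposure to siRNA, and the labels name no cytokine treatment. The labels do not say whether the replicates came from separate cultures, so the p-values measure only the spread between these samples, which may be technical. DNM3OS itself was not analysed here, so the depletion of the target was not checked in these libraries.

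NF-kB transcription factors are dimers of REL-domain proteins that IkB proteins hold in the cytoplasm. Ligands such as TNF and interleukin-1 act through receptors, TRAF and IRAK adaptors and the IKK complex, which marks IkB proteins for degradation and frees the dimers to enter the nucleus. Their targets include cytokines and chemokines and also several of the pathway's own inhibitors, and in ovarian cancer the pathway is known for its link with inflammation of the tumour environment. IL-6 family cytokines signal through a separate receptor, IL6ST, to STAT3.

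The libraries held between 1610937 and 1995888 estimated counts, and 3 counts in a library corresponded to between 1.61 and 1.97 CPM (counts scaled to library size, here before TMM factors). The kit marked strand, but the strand option of the quantification is not given in the sources used here. Transcripts that are usually abundant were low: 12 reference mRNAs (among them ACTB, GAPDH and EEF1A1) summed to 334, 1429 and 1442 CPM in knockdown replicates 1 to 3 and to 2638, 918 and 2146 CPM in control replicates 1 to 3, and ACTB had between 36 and 181 counts. All 12 had negative log2 fold changes, with a median of -0.83, and all 12 were lowest in knockdown replicate 1 and in control replicate 2 of their groups. Genes with exon bases opposite another gene's exon were 23.6% of the quantified genes and held between 63.1% and 69.0% of a library's counts on genes. Of the 12 epithelial and SKOV3 markers, KRT8 had between 1195 and 2566 counts and ERBB2 between 311 and 872, whereas MUC16, MSLN and WT1 had at most 4 counts in any library. The summed level of these markers ran from 997 to 2307 CPM in the knockdown and from 1160 to 1779 CPM in the control. Most of that sum was KRT8. Of the 7 markers with enough counts to be tested, only KRT8 had a log2 fold change above 0 (0.39). The other 6 (EPCAM, KRT18, KRT19, PAX8, ERBB2 and CLDN4) were below 0, and the median of the 7 was -0.14. Of 8 leukocyte markers, CD14 and ITGAM were at 0 in all libraries and PTPRC had between 91 and 148 counts. The summed leukocyte marker level was 120 to 139 CPM in the knockdown and 110 to 125 CPM in the control. The strand that the counts measure is thus not known, and a low or absent count below may not measure the sense RNA of the named gene. The part of strand assignment in the values below was not tested.

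NF-kB dimers are known to bind a short promoter element, and its letters were present in some members. A core of that element, GGANNTTCC read on both strands (its reverse complement is GGAANNTCC, and some matches fit both), was searched from 250 bases before to 50 bases after each start in the RefSeq promoter table (GRCh38.p14). It was found in 17 of the 44 members with a promoter there (38.6%), against 5.57% of all 27305 genes. By window, it was found in 26.6% of the members' 64 windows, against 4.57% of all 35116 windows. The list was drawn up as NF-kB pathway and cytokine genes, with known targets among them. These shares are therefore not independent of how the list was chosen. By class, 7 of 11 cytokines, 9 of 25 pathway components and 1 of 8 other genes had a match. IL1A, IL1B, CCL20 and TNF had a window without a match, so that neither IL1A nor IL1B, which were tested for change below, is among the 7. A match is a description of letters and not a site of binding. The following stretches are shown 5′ to 3′ on the gene's strand, with the matched letters in capitals. The chemokines and IL6 held few or no counts, and the pathway genes and ICAM1 shown beside them were detected. This contrast holds for the stretches shown and not for all matched genes. Of the matched genes not shown, NFKB1, NFKBIB and TNIP1 were tested below. The pathway genes NFKBIZ, TNFAIP3 and TRAF1 had 22, 1 and 1 counts in all, and the cytokine CSF2 had 6.
CXCL1: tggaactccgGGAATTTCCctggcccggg
CXCL2: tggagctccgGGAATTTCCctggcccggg
CXCL3: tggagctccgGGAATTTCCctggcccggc
CXCL5: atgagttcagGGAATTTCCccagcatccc
CXCL8: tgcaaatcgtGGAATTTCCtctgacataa
IL6: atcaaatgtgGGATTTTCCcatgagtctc
NFKBIA: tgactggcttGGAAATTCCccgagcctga
NFKB2: ggtattttcgGGACTTTCCtaagctgctc
REL: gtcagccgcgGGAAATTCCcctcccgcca
ICAM1: gctttagcttGGAAATTCCggagctgaag
The 5 chemokine stretches lie at chr4:73869305-73869333 (CXCL1, plus strand), chr4:74099254-74099282 (CXCL2, minus), chr4:74038749-74038777 (CXCL3, minus), chr4:73998749-73998777 (CXCL5, minus) and chr4:73740468-73740496 (CXCL8, plus). The others lie at chr7:22727118-22727146 (IL6, plus), chr14:35404812-35404840 (NFKBIA, minus), chr10:102395675-102395703 (NFKB2, plus), chr2:60881518-60881546 (REL, plus) and chr19:10270924-10270952 (ICAM1, plus). The match began 78, 77 and 78 bases before the RefSeq start in CXCL1, CXCL2 and CXCL3, 90 bases before it in CXCL5 and 91 in CXCL8. NFKBIA and NFKBIB each had a second match in the window.

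Most of the cytokine genes were barely detected in either group, whereas most pathway components were. Only IL1A, IL1B and IL18 among the 15 cytokines had enough counts to pass edgeR's filter at its default and be tested (20.0%), against 17 of 27 pathway components (63.0%), 6 of 9 other genes (66.7%) and 33.9% of all quantified genes. The mean TPM (a level scaled to transcript length and library) over the 6 samples had a median of 1.59 over the cytokines, 9.25 over the pathway components and 10.5 over the other genes, beside 1.495 over all quantified genes. SOD2 and REL together held 87.5% of the 35767 counts on the 51 genes.

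TNF, CCL2 and CXCL5 had no count in any of the 6 libraries, which allows up to 3 counts per library, the level given above. TNF is the founding ligand of the pathway, CCL2 attracts monocytes, and CXCL5 attracts neutrophils. Among the other chemokines, CXCL8, the main human neutrophil attractant, had 1, 2 and 1 counts in knockdown replicates 1 to 3 and 2, 2 and 3 in control replicates 1 to 3. CXCL1, a related neutrophil attractant, had 1, 3 and 4 counts in the knockdown and 3, 7 and 6 in the control. Its groups overlapped. CXCL2 had 2, 1 and 2 counts against 4, 2 and 1, and CXCL3 had 0, 1 and 3 against 3, 3 and 3. CCL20, which attracts cells bearing CCR6, had 1, 4 and 7 counts against 3, 3 and 5. None of these genes had groups that stood apart, and no fold is given for them at these counts.

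IL6, the ligand of the STAT3 route, had 1, 3 and 1 counts in the knockdown and 0, 2 and 0 in the control. LIF, of the same cytokine family, had 0, 5 and 3 counts against 2, 1 and 3. The growth factor CSF1, which maintains macrophages, had 2, 2 and 4 counts against 5, 3 and 6, and CSF2, which acts on granulocytes and macrophages, had 0, 0 and 2 against 1, 1 and 2. Across the 12 untested cytokines the highest count in a library was 7 and the highest total over 6 libraries was 24. These genes were not tested, and only a difference of many counts could have shown at this depth.

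**Figure D1:**
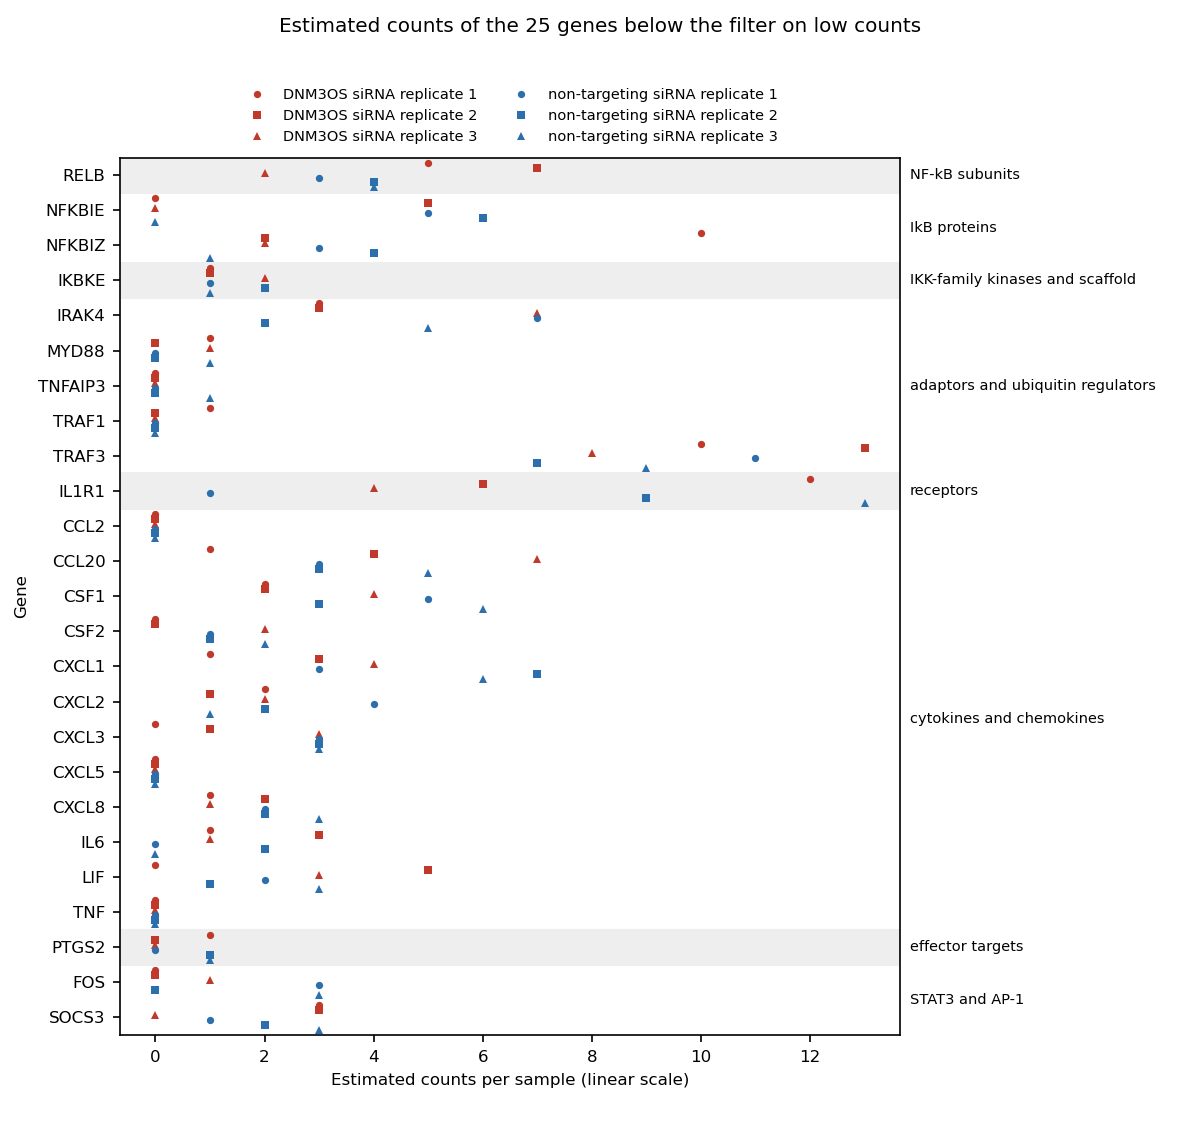
Estimated counts per sample (horizontal axis, linear) of the 25 genes below the filter on low counts, grouped by role. Red marks are the 3 knockdown samples and blue marks the 3 control samples, and marks are offset vertically only to separate them. No gene exceeds 13 counts in a sample, and TNF, CCL2 and CXCL5 lie at 0 throughout.

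Of the pathway components, 10 fell below the filter. TRAF3, a negative regulator of the non-canonical route, had 10, 13 and 8 counts in the knockdown and 11, 7 and 9 in the control. IL1R1, the signalling receptor of interleukin-1, had 12, 6 and 4 counts against 1, 9 and 13. The counts of both overlapped between the groups. The TPM of TRAF3 did not, at 6.22, 6.29 and 5.225 in the knockdown and 7.43, 10.6 and 11.0 in the control. How often this occurs by TPM over all genes was not computed. IRAK4, the kinase that starts interleukin-1 signalling with MYD88, had 3, 3 and 7 counts against 7, 2 and 5, and RELB, the partner of NFKB2 in the non-canonical route, had 5, 7 and 2 against 3, 4 and 4. The inhibitor NFKBIE had 0, 5 and 0 counts against 5, 6 and 0, and the nuclear IkB protein NFKBIZ had 10, 2 and 2 against 3, 4 and 1. These 4 genes also had overlapping groups. The kinase IKBKE had at most 2 counts in a library and 8 in all. MYD88, the shared adaptor of interleukin-1 and Toll-like receptors, had 3 counts in all, and TRAF1 and TNFAIP3 had 1 each. TNFAIP3, which encodes the ubiquitin editor A20, and TRAF1 are themselves known NF-kB targets. In the third class, FOS had 7 counts in all, SOCS3, the feedback inhibitor of STAT3 signalling, had 12, and PTGS2, the inducible cyclooxygenase, had 3.

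In the 26 genes that passed the filter, no change between knockdown and control met the study's threshold (a difference of 2-fold or more and an adjusted p under 0.05) in edgeR's exact test with Benjamini-Hochberg adjustment. Their adjusted p-values were all 1, and over all 11814 tested genes the threshold was met by 1 gene (0.00846%). Without adjustment, 0 members were higher at a p below 0.05, against 1.01% of all tested genes, and 1 member, IRAK1, was lower, against 1.91%. By CPM, the 3 knockdown values all lay above the 3 controls in 0 members, against 4.42% of all tested genes. They all lay below in 0 members, against 3.56%. No member reached a 2-fold difference, which 1.77% of all tested genes did. With length-scaled TPM counts in place of the summed counts, TBK1 (-1.26), IL6ST (-1.15) and ICAM1 (-1.12) passed it on the log2 scale, with adjusted p-values of at least 0.91 in edgeR's exact test. The share of the 11992 genes tested with those counts that passed 2-fold was not computed. The 1.77% belongs to the summed counts and is not a background for these 3 genes. In 18 of 26 members (69.2%) the log2 fold change was smaller than its standard error, against 61.4% of all tested genes. By sign, 16 members had values above 0 and 10 below.

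The cytokines and the pathway components could not be set apart by their changes. The median log2 fold change was 0.41 over the 3 tested cytokines, 0.03 over the 17 components, 0.07 over the 6 other genes and 0.00417 over all tested genes. The 3 cytokines had positive values (0.14 to 0.70), and components ran from -0.86 to 0.98 with 10 positive and 7 negative. With 1 library left out in turn, the cytokine median ran from 0.00973 (without knockdown replicate 1) to 0.78 (without knockdown replicate 2), and the component median from -0.12 (without knockdown replicate 3) to 0.11 (without control replicate 2). Summed over all 15 genes, the cytokine level was 81.2, 56.1 and 70.8 CPM in knockdown replicates 1 to 3 and 57.3, 68.7 and 57.1 CPM in control replicates 1 to 3. The summed level of the 27 components was 1093, 732 and 792 CPM against 739, 908 and 726 CPM. In both sums knockdown replicate 1 and control replicate 2 were the highest of their groups and the groups overlapped. These are the 2 libraries in which the reference mRNAs were lowest. REL made up most of the component sum in every library, at 832, 438 and 469 CPM against 412, 615 and 428 CPM. The order of the component sum is therefore largely that of 1 gene. Of the components, REL, IL1RAP and NFKBIB were highest in both libraries. NFKB1, NFKBIA, TBK1, IRAK1, TNIP1 and IL6ST were lowest in both. Without both libraries (an alternative added after the data were seen), the medians were 0.18 for the cytokines and 0.09 for the 16 components still tested. In that setting 0 members were called, beside 31 genes called lower and 8 called higher of all 11975 tested. The part of this difference between libraries in the sums was not tested.

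**Figure D2:**
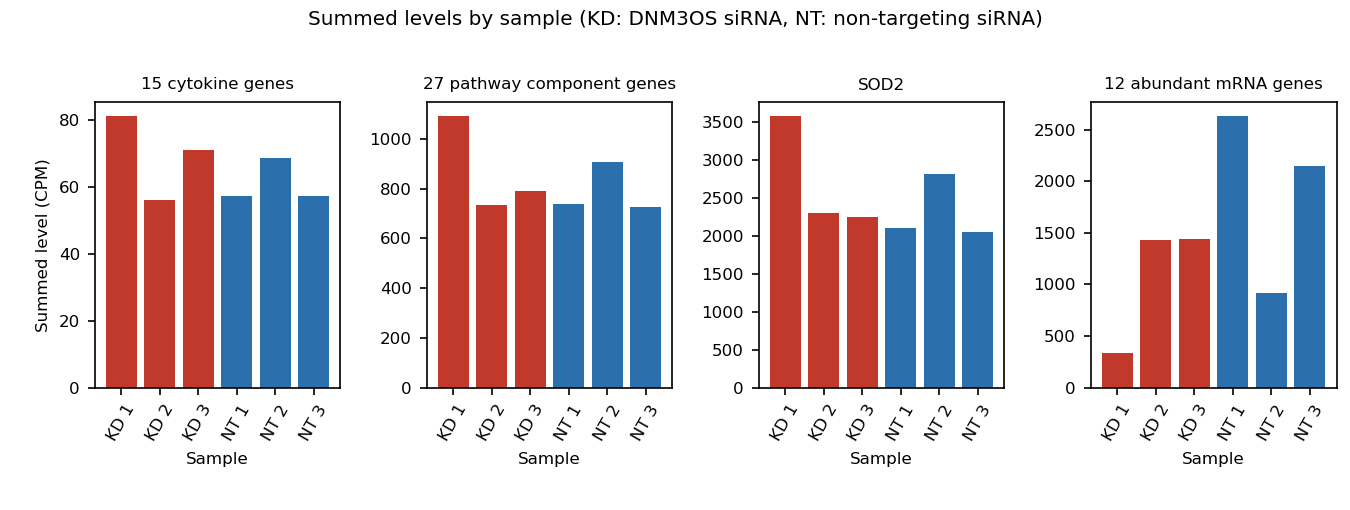
Summed level in CPM (vertical axes, each from 0) of the 15 cytokine genes, the 27 pathway components, SOD2 alone and 12 abundant reference mRNAs, with one bar per sample (red, knockdown; blue, control). The first 3 panels are highest in knockdown replicate 1 and control replicate 2 of their groups, and the reference mRNAs are lowest there. REL makes up most of the pathway component sum.

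**Figure D3:**
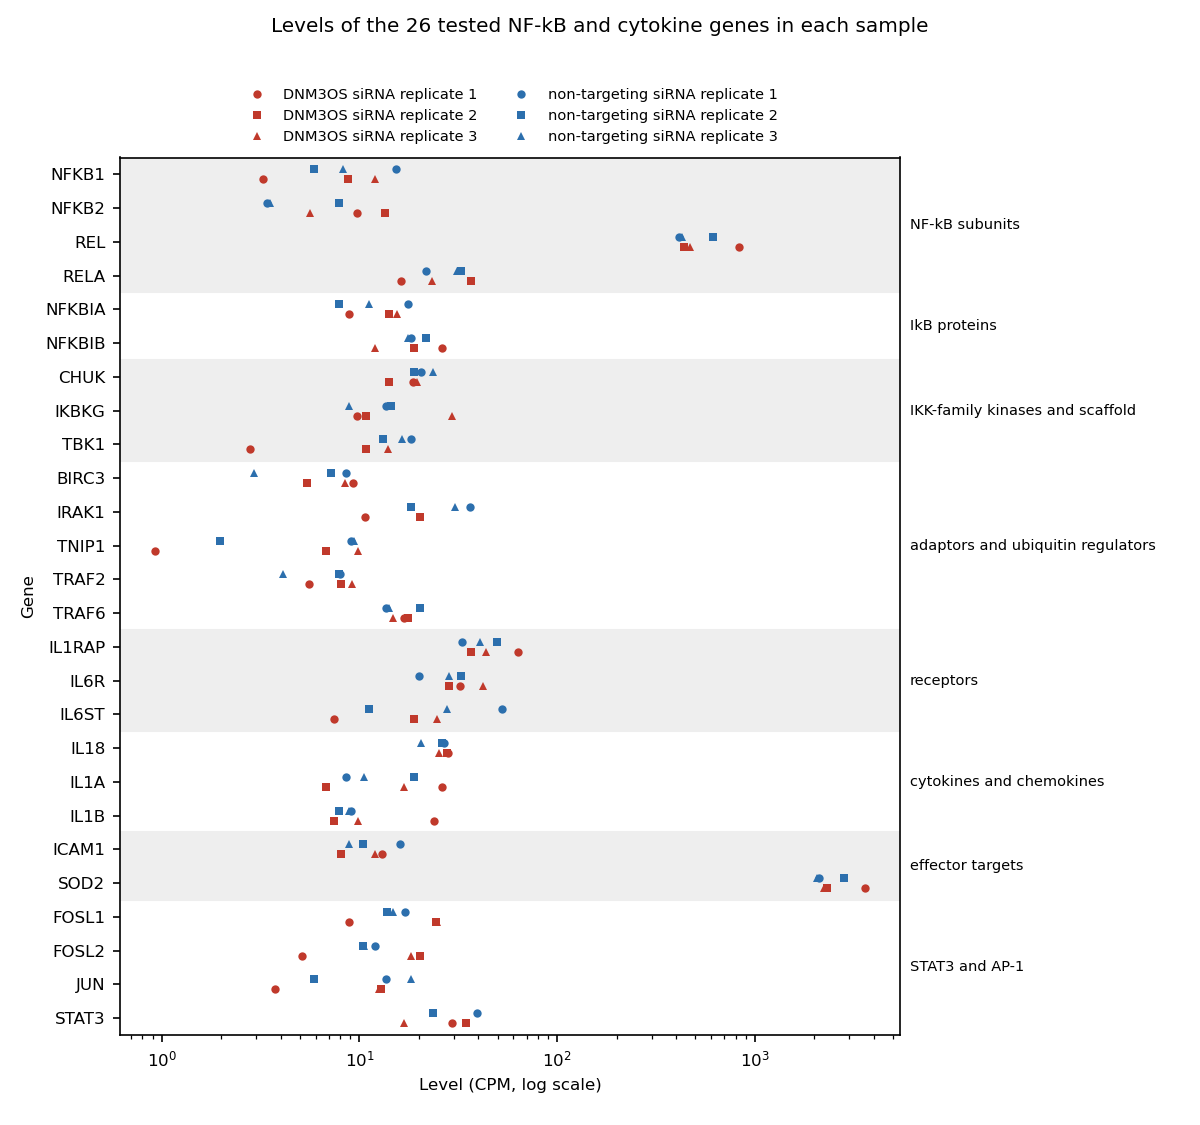
Level of each of the 26 tested genes in CPM (horizontal axis, log scale) in the 3 knockdown samples (red) and the 3 control samples (blue), grouped by role. Red and blue marks overlap in every gene, and SOD2 and REL lie above the rest.

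Among the NF-kB subunits, REL, the subunit best known from lymphoid cells, had the highest level at a mean of 68.3 TPM. REL measured 832, 438 and 469 CPM in knockdown replicates 1 to 3 and 412, 615 and 428 CPM in control replicates 1 to 3. Knockdown replicate 1 was the highest of the 6 and control replicate 2 the next, and the groups overlapped. The log2 fold change was 0.26 (SE 0.35, adjusted p = 1 in edgeR's exact test), and it was -0.09 without knockdown replicate 1. RELA, the main transactivating subunit, measured 16.3, 36.5 and 23.2 CPM against 21.7, 32.7 and 31.2 CPM. NFKB1, its usual partner, measured 3.26, 8.78 and 11.9 CPM against 15.4, 5.89 and 8.24 CPM. Both had wide spreads inside each group and overlapped between them. NFKB2, the precursor of the non-canonical subunit, measured 9.77, 13.5 and 5.61 CPM against 3.42, 7.86 and 3.53 CPM. It had the highest log2 fold change of the 26 (0.98, SE 0.45), with an exact permutation p of 0.2 (two-sided, 0.1 being the smallest that 3 against 3 samples allow), an unadjusted p of 0.062 and an adjusted p of 1 in edgeR's exact test, and knockdown replicate 3 lay below control replicate 2.

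The 2 IkB genes that were tested had log2 fold changes closest to 0. NFKBIA, the classical inhibitor and an early target of the pathway, measured 8.84, 14.2 and 15.4 CPM in the knockdown and 17.7, 7.86 and 11.2 CPM in the control. Its values were interleaved between the groups, and its log2 fold change was 0.03 (SE 0.38, adjusted p = 1 in edgeR's exact test). NFKBIB measured 26.1, 18.9 and 11.9 CPM against 18.2, 21.6 and 17.7 CPM. The knockdown values of NFKBIB enclosed all 3 controls.

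Of the kinase group, IKBKG, the regulatory scaffold also called NEMO, had the highest level (mean 29.2 TPM). IKBKG measured 9.77, 10.8 and 29.5 CPM in the knockdown and 13.7, 14.4 and 8.82 CPM in the control. Only knockdown replicate 3 was above all 3 controls, and the log2 fold change of 0.42 (SE 0.52, adjusted p = 1 in edgeR's exact test) became -0.26 without it. CHUK, the kinase IKK alpha, measured 18.6, 14.2 and 19.7 CPM against 20.5, 19.0 and 23.5 CPM. The groups of CHUK touched only through knockdown replicate 3, which exceeded control replicate 2, and its exact permutation p was 0.2. TBK1, an IKK-related kinase of innate immunity, measured 2.79, 10.8 and 14.0 CPM against 18.2, 13.1 and 16.5 CPM. TBK1 likewise overlapped by a single pair, knockdown replicate 3 and control replicate 2, with a log2 fold change of -0.84 (SE 0.61) and an exact permutation p of 0.2. With 1 sample left out it ran from -1.30 (without knockdown replicate 3) to -0.35 (without knockdown replicate 1).

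IRAK1, the interleukin-1 receptor-associated kinase, was the only member with an unadjusted p below 0.05. It measured 10.7, 20.3 and 20.4 CPM in the knockdown and 36.5, 18.3 and 30.6 CPM in the control. Control replicates 1 and 3 were above all knockdown samples, and control replicate 2 was below 2 of them. The mean was 17.1 ± 5.55 CPM in the knockdown and 28.5 ± 9.25 CPM in the control (SD, n = 3 each), a log2 fold change of -0.76 (SE 0.40). In edgeR's exact test the unadjusted p was 0.0487 and the adjusted p was 1, and the exact permutation p was 0.3. The unadjusted p of IRAK1 was not below 0.05 without knockdown replicate 1, control replicate 1 or control replicate 3.

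Of the other adaptors, TRAF6, the ubiquitin ligase downstream of IRAK1, had the highest level (mean 18.0 TPM). TRAF6 measured 16.7, 17.6 and 14.7 CPM in the knockdown and 13.7, 20.3 and 14.1 CPM in the control, a log2 fold change of 0.04 (SE 0.18, adjusted p = 1 in edgeR's exact test). The spread inside the control exceeded the difference. TRAF2, the adaptor of TNF receptors, measured 5.58, 8.10 and 9.12 CPM against 7.98, 7.86 and 4.12 CPM. BIRC3, a ubiquitin ligase of the same receptor complexes, measured 9.30, 5.40 and 8.42 CPM against 8.54, 7.20 and 2.94 CPM. In both, control replicate 3 was the lowest of all 6 samples. TNIP1, which binds A20 and restrains the pathway, measured 0.930, 6.75 and 9.82 CPM against 9.11, 1.96 and 9.41 CPM. Its 2 low values were knockdown replicate 1 and control replicate 2, where it had 2 and 3 counts.

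Among the receptors, IL1RAP, the accessory chain of the interleukin-1 receptor, had the highest level summed over its transcripts (mean 115 TPM). Only 13.5% of the counts of IL1RAP lay on transcripts of the protein-coding type, against 89.1% for IL6R. The ranking is therefore not one of coding transcripts. IL1RAP measured 63.7, 36.5 and 43.5 CPM in the knockdown and 33.0, 49.8 and 40.6 CPM in the control. As with REL, the highest values were knockdown replicate 1 and control replicate 2, and the log2 fold change was 0.24 (SE 0.29, adjusted p = 1 in edgeR's exact test). IL6R, the ligand-binding receptor of interleukin-6, measured 32.1, 28.4 and 42.1 CPM against 19.9, 32.7 and 28.2 CPM. Its partner IL6ST, the shared signal transducer gp130, measured 7.44, 18.9 and 24.6 CPM against 52.4, 11.1 and 27.7 CPM. IL6ST had the lowest log2 fold change of the 26 (-0.86), with an SE of 0.78 and -0.22 without control replicate 1, and control replicate 1, with 92 of its 235 counts, was far above the other samples.

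The 3 tested cytokines belong to the interleukin-1 family. IL18 had the highest level of all 15 cytokines at a mean of 38.8 TPM and the tightest replicates of the 26 genes. IL18 measured 27.9, 27.7 and 25.3 CPM in the knockdown and 26.8, 26.2 and 20.6 CPM in the control, a log2 fold change of 0.14 (SE 0.12, adjusted p = 1 in edgeR's exact test). Knockdown replicate 3 was below 2 of the controls. IL1A measured 26.1, 6.75 and 16.8 CPM against 8.54, 19.0 and 10.6 CPM. IL1B, which needs cleavage by caspase-1 for release, measured 23.7, 7.43 and 9.82 CPM against 9.11, 7.86 and 8.82 CPM. Knockdown replicate 1 was the highest sample for both interleukin-1 genes, and for IL1B the other 2 knockdown samples lay near the controls. Without knockdown replicate 1 the log2 fold change of IL1B went from 0.70 to 0.01, and that of IL1A from 0.41 to -0.09.

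SOD2, the mitochondrial superoxide dismutase and a known NF-kB target, had the highest level of all 51 genes (mean 459 TPM) and 72.1% of their counts. SOD2 measured 3584, 2302 and 2245 CPM in the knockdown and 2102, 2821 and 2053 CPM in the control. Knockdown replicate 1 was the highest and control replicate 2 the next, the groups overlapped, and the log2 fold change was 0.22 (SE 0.26, adjusted p = 1 in edgeR's exact test) with all samples and -0.02 without knockdown replicate 1. ICAM1, the adhesion molecule that endothelial and epithelial cells raise on NF-kB activation, measured 13.0, 8.10 and 11.9 CPM against 16.0, 10.5 and 8.82 CPM. The CPM values of ICAM1 were interleaved, with a log2 fold change of -0.08 (SE 0.30). Its TPM did not overlap between the groups, at 6.48, 8.25 and 5.15 in the knockdown and 16.7, 9.95 and 16.3 in the control. The share of all genes whose TPM did not overlap was not computed. With length-scaled TPM counts the log2 fold change of ICAM1 was -1.12 (unadjusted p 0.0096, adjusted p 0.91 in edgeR's exact test).

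In the STAT3 and AP-1 group, FOSL1 had the highest level (mean 25.4 TPM). FOSL1 measured 8.84, 24.3 and 24.6 CPM in the knockdown and 17.1, 13.8 and 14.7 CPM in the control. Knockdown replicate 1 was below all controls and the other 2 knockdown samples above them, and the log2 fold change was 0.31 (SE 0.46, adjusted p = 1 in edgeR's exact test). FOSL2, its relative, measured 5.12, 20.3 and 18.2 CPM against 11.96, 10.5 and 10.6 CPM. Again knockdown replicate 1 was below all controls and the other 2 knockdown samples above them. Without knockdown replicate 1, FOSL1 and FOSL2 had unadjusted p-values below 0.05 and adjusted p-values above it. JUN, the AP-1 partner of both, measured 3.72, 12.8 and 12.6 CPM against 13.7, 5.89 and 18.2 CPM. STAT3, the transcription factor of the IL6ST route, measured 29.3, 34.4 and 16.8 CPM against 39.3, 23.6 and 23.5 CPM. JUN and STAT3 overlapped between the groups.

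**Figure D4:**
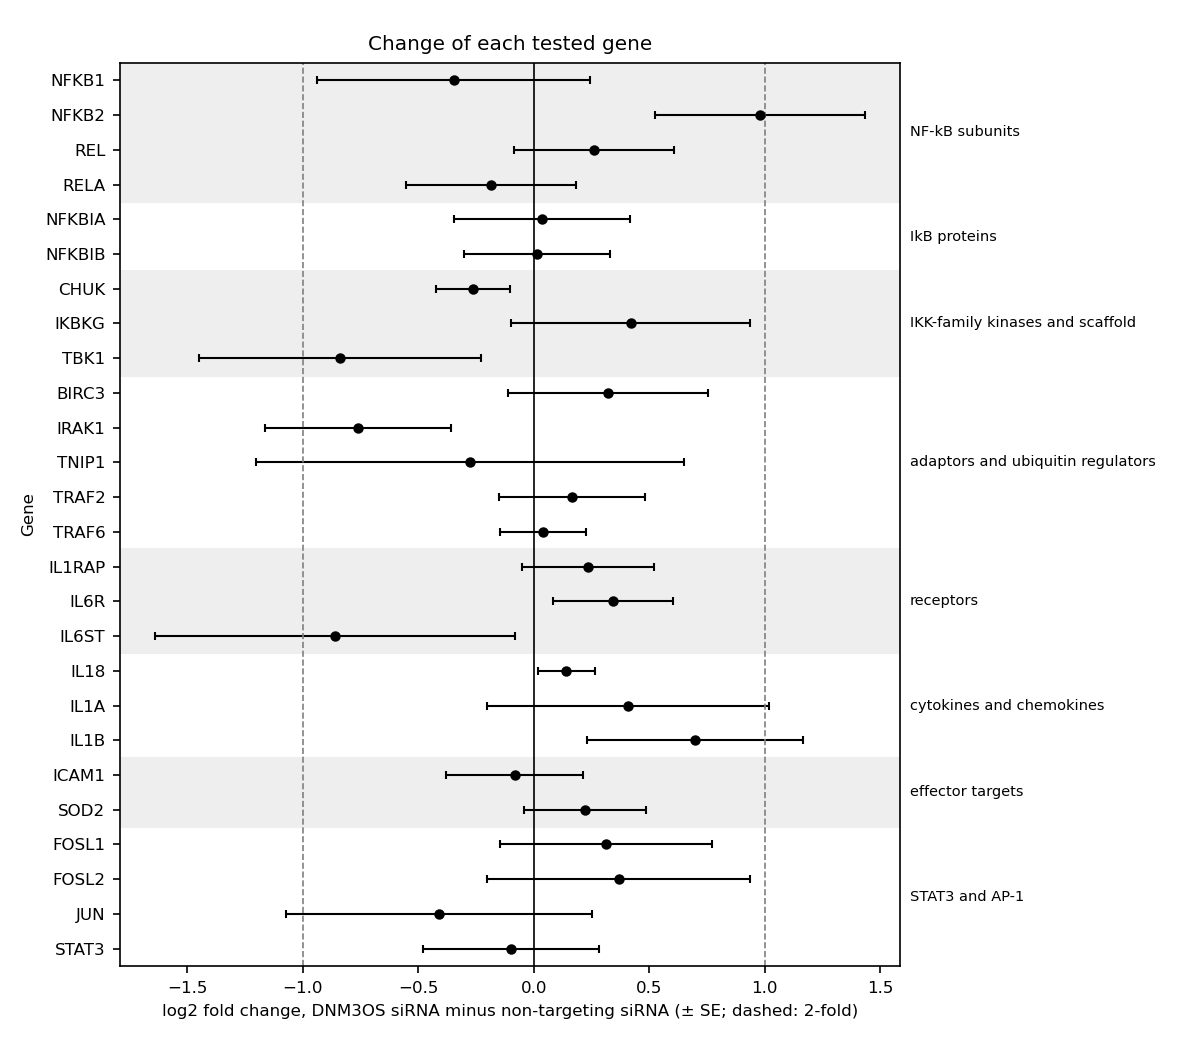
Log2 fold change of the 26 tested genes, knockdown minus control (points; bars are ± 1 SE from 3 samples per group), grouped by role. Dashed lines mark a 2-fold difference, which no point reaches. NFKB2 is the highest at 0.98 and IL6ST the lowest at -0.86.

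Across the tested members, knockdown replicate 1 and control replicate 2 often held the extreme values of their groups together. Of the 26, 5 (19.2%) were highest in both, namely REL, SOD2, IL1RAP, IL1A and NFKBIB. Another 9 (34.6%) were lowest in both, namely NFKB1, NFKBIA, TBK1, IRAK1, TNIP1, IL6ST, JUN, FOSL1 and FOSL2. Over all tested genes these shares were 22.4% and 24.3%, or 46.7% for either, against 53.8% of the members. The samples were picked out after their values were seen, and the shares are given without a test.

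The transcripts that held the counts were not always the main coding form. For 6 of the 26 tested members the transcript with the most counts was not of the annotated protein-coding type: it held 81.3% of the counts of IL1RAP, 97.3% of those of NFKBIB, 73.8% for CHUK, 69.1% for NFKB2, 60.5% for STAT3 and 49.3% for BIRC3. These shares pool all libraries. The NFKB2 transcript held 1.65% in control replicate 1 and between 68.4% and 87.7% in the other libraries. That of STAT3 ran from 33.0% in control replicate 1 to 83.55% in knockdown replicate 1. The NFKB2 transcript is annotated as a retained intron and the NFKBIB transcript as subject to nonsense-mediated decay. One REL transcript of 11255 bases held all counts of REL, and one SOD2 transcript of 14266 bases held 96.6% of those of SOD2.

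Parts of several transcripts also occur in other genes. Sequences were read from GENCODE 44, where 14 of the 26 leading transcripts have the length given in the files, and the others, among them those of IKBKG and TRAF6, were quantified in another version. Of the 31-base words of the leading transcript, a median of 4.21% occurred in a transcript of another gene on either strand, with 0% in 9 members (CHUK, FOSL2, IL1A, IL1B, JUN, NFKB1, NFKBIA, TNIP1 and TRAF2). For IKBKG, 69.1% of the words occurred on the same strand in its near-identical pseudogene IKBKGP1, so that its level is uncertain. For REL the share was 52.3%, with 50.5% in a single other gene on the same strand. The SOD2 transcript shared 22.6% of its words, 17.6% on its own strand with 3653 genes and 20.9% on the opposite strand with 3569 genes, and its level, the highest on the list, is likewise uncertain. ICAM1 shared 27.8%, of which ICAM4-AS1 on the opposite strand covered 26.7%. IL6ST shared 13.7%, with 7.90% on the opposite strand in 1 other gene. By coordinates, 17 of the 51 members had exon bases opposite another gene's exon, from 0.154% of the exon bases in IL1R1 to 25.4% in ICAM1. Reads from such a member and its partner cannot be told apart without the strand, and their part in these values was not tested.

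**Figure D5:**
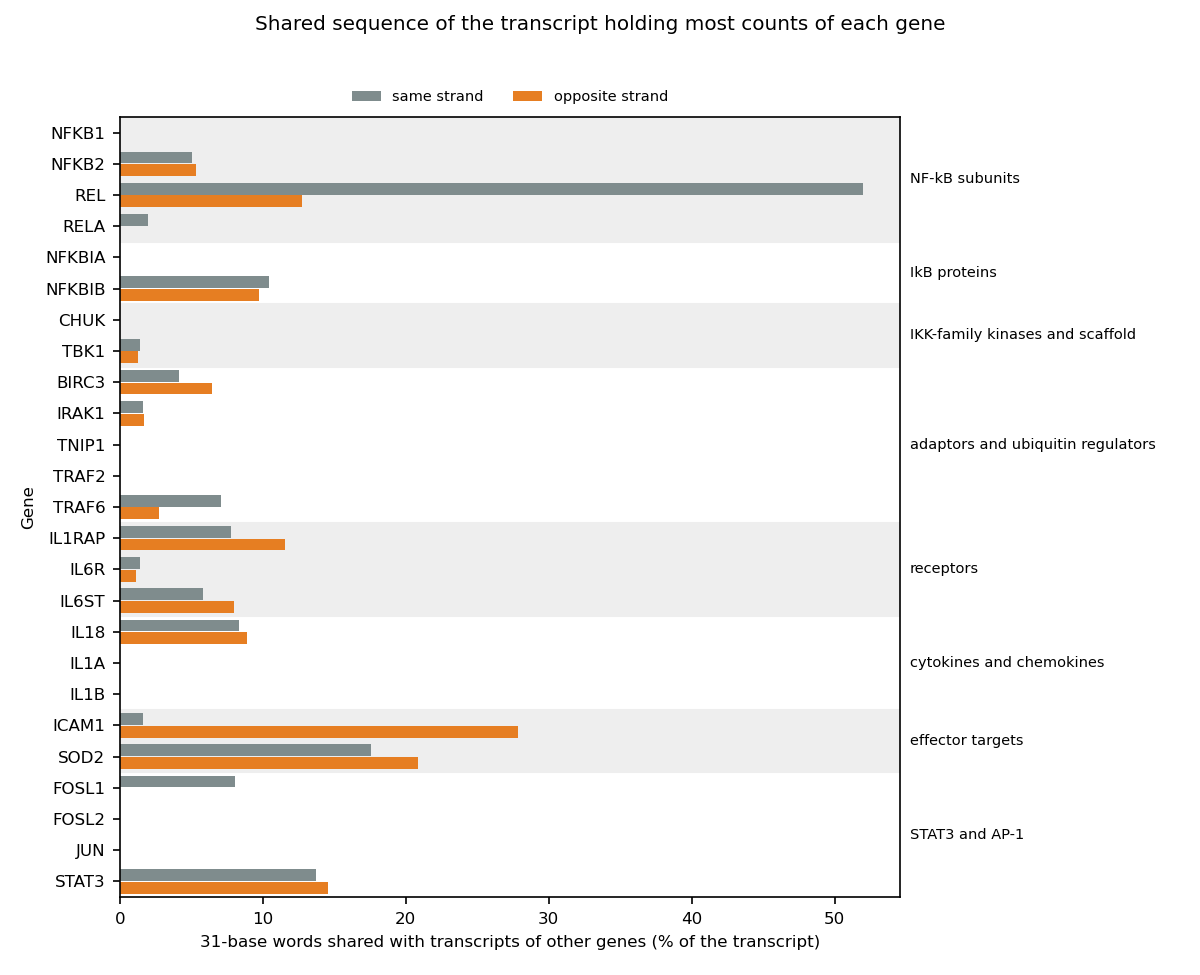
Percentage of 31-base words in the transcript holding most counts of 25 tested genes (all but IKBKG) that also occur in transcripts of other genes (grey, same strand; orange, opposite strand). REL has the highest share on the same strand and ICAM1 on the opposite strand, and 9 genes have none.

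The rest of the pathway was read from a second list of 56 genes of TNF, interleukin-1 and IL-6 family signalling. Of the 35 that were tested, 15 had log2 fold changes above 0 and 20 below, with a median of -0.14. In edgeR's exact test 0 were called, and 0 had an unadjusted p below 0.05. In 1 of the 35 all knockdown values were higher than the controls and in 2 all were lower (2.86% and 5.71%), beside the 4.42% and 3.56% of all tested genes given above. They are named for that reason after their values were seen. LTBR, the lymphotoxin beta receptor, was 40.3 ± 2.55 CPM in the knockdown and 29.8 ± 5.98 CPM in the control (SD, n = 3 each). MAP3K14, the kinase NIK of the non-canonical route, was 28.4 ± 0.644 CPM and 34.4 ± 2.28 CPM, and NFKBID, a nuclear IkB protein, was 8.09 ± 2.71 CPM and 13.1 ± 0.619 CPM. Their adjusted p-values in edgeR's exact test were 1.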

How the data were processed

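RNA from SKOV3 cells was sequenced from 3 knockdown and 3 control samples. Per the labels and the study's methods, libraries were made with a stranded, ribosomal RNA-depleted total RNA kit, and the authors quantified paired reads against Ensembl GRCh38 transcripts with kallisto 0.43.0. The strand option is not given in the sources used here. The authors deposited per transcript an estimated count (not normalized), a TPM and an effective length. Of the transcripts, those in GENCODE 44 were kept (93.6% to 95.2% of a library's counts), and their counts were added up for each gene and rounded. Genes were filtered with filterByExpr (minimum count 10), normalized by TMM and compared with edgeR's exact test (edgeR 4.0.16, R 4.3.3) with Benjamini-Hochberg adjustment over all 11814 tested genes. The exact test and the threshold (2-fold, adjusted p under 0.05) were those of the study, and the filter and the TMM factors were chosen here. CPM used TMM-scaled library sizes. The SE of a log2 fold change was computed from the group variances of log2 CPM, with a prior count of 2. Single genes were also tested by exact permutation of the samples on that scale. Detection limits cover counting error only.

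Groups came from the labels. The members and lists were chosen with earlier results of these data known. Every member is named. Fold changes with adjusted p-values were printed for members with an unadjusted p below 0.05 or groups that did not overlap and for the member of highest mean TPM per role, and other fold changes were named after the values were seen. Alternatives were the quasi-likelihood fit of edgeR, alone or with a replicate block, DESeq2 1.42.0, RLE factors, no filter or 1 CPM in 3 samples, length-scaled TPM counts, no fold threshold and each sample left out. The script was tested on simulated data. One result on shared sequence is not reported here.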

Additional observations from a re-analysis of the deposited data

How the results depend on the processing

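No member was called under any of the settings run, which included the test without a fold threshold. Without knockdown replicate 1 and control replicate 2 together, 31 of all 11975 tested genes were called lower and 8 higher. The count of members with an unadjusted p below 0.05 was 1 in the exact test. It was 0 with the quasi-likelihood test and the replicate block, 0 with DESeq2, 3 with length-scaled TPM counts (ICAM1, IL6ST and TBK1), 3 without knockdown replicate 1 and control replicate 2 together (added after the data were seen), and between 0 and 3 with each sample left out. The quasi-likelihood test without the block, RLE factors and both filters gave 1, IRAK1. For these alternatives the share of all tested genes below that p was not computed. Deviations from the group means of same-numbered samples correlated at -0.40, -0.34 and 0.23, so the numbers were not read as pairs, and the block did not change the count of called members. Of 26 tested members, 8 kept their sign under every setting that gave a value, and NFKB2, one of them, gave none without both libraries. In 362 comparisons of a member's log2 fold change with an alternative, 35 turned the sign. NFKBIB was -0.0493 with the replicate block, -0.000723 with DESeq2, and -0.19 without both libraries, and RELA was then 0.20 and IL1B -0.0400. With length-scaled TPM counts NFKBIA was -0.24, TRAF6 -0.54 and FOSL2 -0.0503. With each sample left out in turn the log2 fold change ran from -0.76 to 0.12 for NFKB1, -0.0865 to 0.48 for REL, -0.55 to 0.0824 for RELA, -0.19 to 0.39 for NFKBIA, -0.29 to 0.25 for NFKBIB, -0.26 to 0.71 for IKBKG, -0.10 to 0.38 for TRAF2, -0.0693 to 0.25 for TRAF6, -0.90 to 0.27 for TNIP1, -0.0259 to 0.63 for BIRC3, -0.0261 to 0.40 for IL1RAP, -0.0933 to 0.82 for IL1A, -0.27 to 0.20 for ICAM1, -0.0229 to 0.39 for SOD2, -0.30 to 0.19 for STAT3 and -0.74 to 0.0166 for JUN. For the members that kept their sign there, it ran from 0.68 to 1.47 for NFKB2, -0.34 to -0.14 for CHUK, -1.30 to -0.35 for TBK1, -0.99 to -0.48 for IRAK1, 0.16 to 0.51 for IL6R, -1.25 to -0.22 for IL6ST, 0.01 to 0.99 for IL1B, 0.02 to 0.21 for IL18, 0.09 to 0.69 for FOSL1 and 0.03 to 0.81 for FOSL2. The causes were not tested. The standard errors of the 26 members ran from 0.12 to 0.93. They are not limits of detection: NFKB2, at 0.98 with an SE of 0.45, was not called. The 25 members below the filter had at most 13 counts in a library.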
